A study of Drosophila melanogaster with 3 samples.

Results

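Transcripts known only by a CR number, the symbol that Drosophila annotation gives to genes without a coding product, were examined in 3 libraries of larval fat body RNA. The members were the rows whose symbol is CR followed by digits alone and whose raw read counts, summed over the 3 libraries, reached 300 or more. They were chosen by those summed counts, so that their abundance is a description and not a result. There were 158 members, 7.78% of the 2032 rows with such a symbol and a small part of the 16509 rows in all, while 735 CR rows had 0 counts in every library. The libraries came from Dcg > Hpo larvae, in which Dcg-Gal4, a collagen IV driver of fat body that is also active in blood cells, expressed the Hippo kinase gene hpo, from Dcg > Hpo-RNAi larvae, in which the same driver expressed RNAi against hpo, and from Dcg/+ larvae, which carried the driver without a transgene to act on. All 3 groups thus shared the Dcg driver, and each was 1 library made from pooled tissue. The titles call the tissue fat and the sample source names larvae, whereas the extraction protocol in the labels names 30 adult heads.

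The CR symbols cover RNAs that work in different ways. Long noncoding RNAs are transcribed and often spliced and polyadenylated like mRNAs without being translated. Antisense RNAs are transcribed from the strand opposite to a gene and overlap it, primary microRNA transcripts are cut to release a hairpin, and rRNA pseudogenes are incomplete copies of ribosomal RNA genes in the heterochromatin of the X chromosome. The larval fat body, the insect counterpart of liver and adipose tissue, stores lipid and secretes storage proteins and antimicrobial peptides. Hippo restrains the co-activator Yorkie, and the growth-promoting microRNA bantam is a known Yorkie target in imaginal discs.

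Read counts of 1 library per genotype leave no replicate error, so no test between genotypes was possible and no p-value is given. The library totals were 23227940 counts in Dcg > Hpo, 23524682 in Dcg > Hpo-RNAi and 21918672 in Dcg/+. A level is given as counts or as counts scaled to equal library totals (CPM, each total set to 1000000), and a ratio is the CPM of the first named library over that of the second with its exact 95% Clopper-Pearson interval, which covers counting error only. Calls needed an interval without 1 and a ratio of at least 2 (higher) or at most 0.5 (lower). The kit reads the 3′ end of polyadenylated RNA, so that counts were not divided by gene length. The row of hpo itself held 11568 counts in Dcg > Hpo, 182 in Dcg > Hpo-RNAi and 289 in Dcg/+, in the direction of each label.

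Markers of fat body were at like summed levels in the libraries, with 183297, 178466 and 181550 CPM over 7 genes in Dcg > Hpo, Dcg > Hpo-RNAi and Dcg/+, of which 1 had 0 counts in each library. Against Dcg/+, the 6 others ranged from 0.586 (Fbp1) to 1.11 times (Lsp1beta) in Dcg > Hpo. In Dcg > Hpo-RNAi they ranged from 0.526 (Lsp1gamma) to 1.19 times (Lsp1beta), and none was called in either. Markers of other tissues differed between the libraries. Of 20 testis and sperm genes, 19 were called lower in Dcg > Hpo than in Dcg/+, with summed levels of 33.3 CPM against 715 CPM, and 5 of them had 0 counts in Dcg > Hpo. The same genes summed to 738 CPM in Dcg > Hpo-RNAi, where none was called. Gut markers summed to 713, 58.5 and 18.2 CPM in Dcg > Hpo, Dcg > Hpo-RNAi and Dcg/+, muscle markers to 1158, 55.8 and 134 CPM, neuron markers to 290, 239 and 242 CPM, and imaginal disc markers to 26.6, 18.8 and 13.8 CPM. In the same order, blood cell markers summed to 542, 233 and 314 CPM, and salivary gland markers to 24746, 665 and 50140 CPM. Single salivary gland genes went both ways in Dcg > Hpo against Dcg/+, with 2 of 8 called higher and 3 lower. In tissue RNA of this kind, fewer cells of a type and less RNA per cell cannot be told apart.

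By the RefSeq annotation of the same genome release, 66 of the 158 members were long noncoding RNAs, 80 were antisense RNAs, 4 were rRNA pseudogenes and 2 were small or hairpin RNAs. Another 4 have since been annotated as protein coding, and 2 (CR40963 and CR40962) matched no entry. The X chromosome held 42 members, chromosome arm 2R held 37, and 28, 21 and 26 lay on 2L, 3L and 3R. Exon sequence was shared with another annotated gene by 120 members, 11 lay within or across a gene body without sharing exon bases, and 25 overlapped no other gene. The median member had 841 summed counts, 76 had 1000 or more, and 104 had at least 100 counts in each library. Over 50% of the summed counts came from the Dcg > Hpo library alone for 22 members, from Dcg > Hpo-RNAi for 29 and from Dcg/+ for 3, so that some members reached the threshold through a single library. Just inside the threshold lay CR43933, CR33987 and CR31514 with 305, 306 and 308 summed counts, and just outside it CR43939, CR33218 and CR44662 with 295, 292 and 290.

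Members took 6.81% of all counts in Dcg > Hpo, 8.13% in Dcg > Hpo-RNAi and 4.62% in Dcg/+. Nearly all of this came from a few rows. The 4 rRNA pseudogenes held 3.15% of the Dcg > Hpo library, 4.87% of the Dcg > Hpo-RNAi library and 2.46% of the Dcg/+ library. Without these, CR34335 and CR40469, the remaining 152 members held 0.731%, 0.752% and 0.672% of the libraries in the same order. The 1874 CR rows under the threshold added 0.0367%, 0.0611% and 0.0588%.

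**Figure D1:**
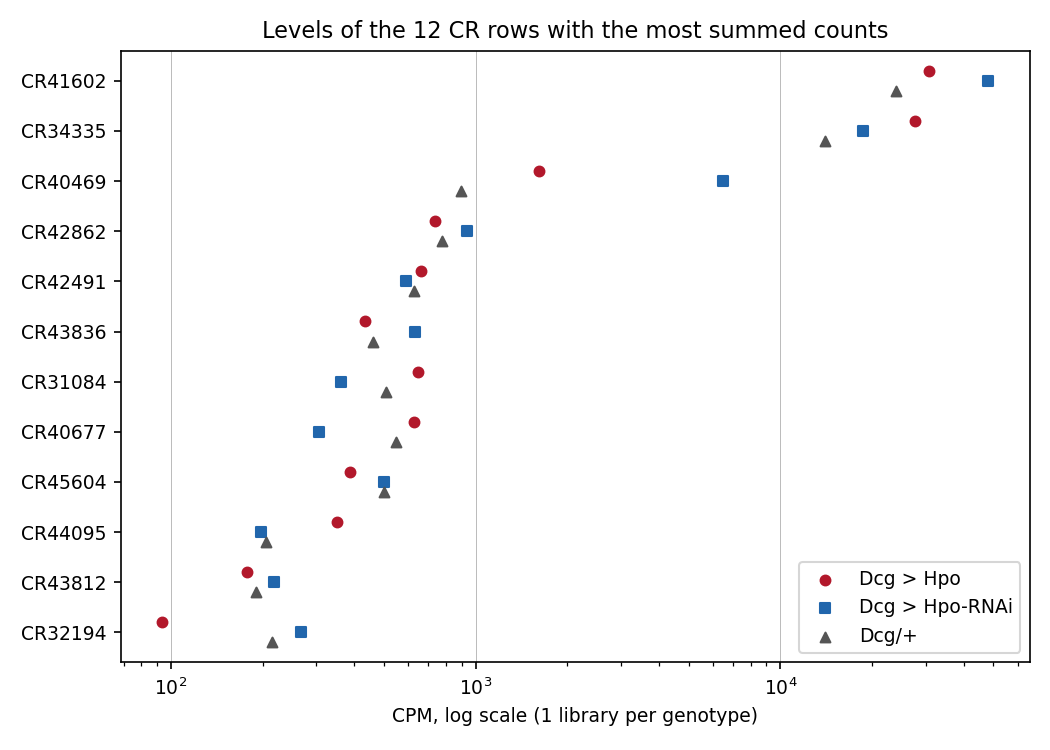
Levels of the 12 members with the most summed counts, in CPM on a log axis, with 1 symbol per library (Dcg > Hpo circles, Dcg > Hpo-RNAi squares, Dcg/+ triangles). CR41602 and CR34335 stand above the other 10 in every library, and CR40469 is the only other row with a level above 1000 CPM, highest in Dcg > Hpo-RNAi.

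CR41602 (chrX:23211192-23213166, plus strand), an 18S rRNA pseudogene that overlaps no other gene, was the most abundant member. Its counts were 714078 in Dcg > Hpo, 1132664 in Dcg > Hpo-RNAi and 523751 in Dcg/+, which made it the 4th, 3rd and 8th most abundant of all rows. The ratio to Dcg/+ was 1.29 (1.28 to 1.29) for Dcg > Hpo and 2.01 (2.01 to 2.02) for Dcg > Hpo-RNAi, and the second fell under the call with TMM factors (1.89) and with median-of-ratios size factors (1.92). The 28S rRNA pseudogenes CR40741 and CR41609 had like ratios, 1.37 and 1.43 for Dcg > Hpo and 2.08 and 2.05 for Dcg > Hpo-RNAi, and the calls in Dcg > Hpo-RNAi were likewise lost with TMM factors (1.96 and 1.92) and with median-of-ratios size factors (1.98 and 1.95). The 2S rRNA pseudogene CR40677 (chrX:23205409-23205438) had its lowest level in the knockdown, with 14601, 7219 and 12010 counts in Dcg > Hpo, Dcg > Hpo-RNAi and Dcg/+ and a ratio of 0.56 (0.544 to 0.577) for Dcg > Hpo-RNAi against Dcg/+. These rows have near-identical copies elsewhere in the ribosomal DNA, so that the origin of their reads is uncertain.

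CR34335 (chrX:3545750-3546110, minus strand), a long noncoding RNA of 361 exon bases, lies inside the body of CG32791 on the same strand without sharing exon bases. It had 642801 counts in Dcg > Hpo, 437607 in Dcg > Hpo-RNAi and 306918 in Dcg/+, or 2.77%, 1.86% and 1.40% of the libraries. CG32791 itself held 42, 10 and 40 counts, far fewer than the member inside it. The ratio of CR34335 to Dcg/+ was 1.98 (1.97 to 1.98) for Dcg > Hpo and 1.33 (1.32 to 1.33) for Dcg > Hpo-RNAi, both under the call.

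CR40469 (chrX:122493-122706, plus strand), a single-exon long noncoding RNA of 214 bases near the tip of the X chromosome, showed the widest range among the abundant members. It had 37540 counts in Dcg > Hpo, 151903 in Dcg > Hpo-RNAi and 19597 in Dcg/+. The knockdown library thus stood apart, at 7.22 times the Dcg/+ level (7.12 to 7.33), while Dcg > Hpo was at 1.81 times (1.78 to 1.84). CG17636, the nearest gene, had 311, 69 and 77 counts.

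The other abundant members varied less than CR40469. CR42862 (chr3L:224106-230964) had 17075 counts in Dcg > Hpo, 22087 in Dcg > Hpo-RNAi and 16980 in Dcg/+, and the same-strand gene CG33229, with which it shares 246 exon bases, had 3847, 5916 and 3552. CR42491 (chrX:762615-763810), the gene around snoRNA:Psi18S-531, shares exon sequence with RpL22, a protein of the large ribosomal subunit, and had 15406, 13923 and 13708 counts in Dcg > Hpo, Dcg > Hpo-RNAi and Dcg/+, beside 17638, 16985 and 15795 for RpL22. Neither was called in any comparison. CR43812 (chr2R:20264855-20265145) had 4113, 5125 and 4181 counts in the same order, with 4, 123 and 68 for CG8908 on the other strand and 29172, 27425 and 24848 for its neighbour RpS18, a protein of the small ribosomal subunit. CR32194 (chr3L:18085305-18087058) was the only one of the 12 called lower in Dcg > Hpo than in Dcg/+, at 0.436 times (0.414 to 0.459), from 2178 and 4716 counts. It had 6290 counts in Dcg > Hpo-RNAi, against which Dcg > Hpo was at 0.351 times. The same-strand gene CG34253, which shares 288 of its exon bases, had 2066 counts in Dcg > Hpo and 4696 in Dcg/+, a ratio of 0.415.

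Some members held nearly the same counts as an overlapping gene. Of the 158, 14 lay within 2% of an overlapping row in all 3 libraries, and 6 of these equalled it. For 13 of these 14 members the other gene was on the opposite strand. In the whole table, 15 of 1042 opposite-strand pairs with shared exon bases and 300 or more summed counts for both genes lay within 2%, and 5 were equal. The whole-table counts include the pairs of the members, and all 5 equal pairs hold a member. They are therefore not a separate background for the members. CR45520 had 101, 232 and 207 counts in Dcg > Hpo, Dcg > Hpo-RNAi and Dcg/+, and so had Sirt4, a mitochondrial sirtuin. CR45142 and Spt-I, a subunit of serine palmitoyltransferase, both had 145, 73 and 103, and CR45214 and RIOK2, a kinase of ribosome maturation, both had 221, 179 and 129. CR44095 (chr3R:14568962-14569871), among the 12 most abundant, had 8175, 4664 and 4497 counts beside 8174, 4649 and 4488 for Cys, a cystatin-like protease inhibitor on the other strand. The members CR44458 and CR44459, which overlap each other, had 237, 103 and 149 counts each. Reads of such a pair cannot be told apart by strand in these counts, and a value for the antisense RNA is a value for the pair.

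The remaining pairs differed in degree. Of the 112 members that share exon bases with a gene that has a row, 92 have the largest overlap with a gene on the opposite strand, and for 76 that gene held at least as many counts as the member in all 3 libraries. For 45 of the 112, a 3′ end of the gene with the largest overlap lies in an exon of the member. The log2 ratio of Dcg > Hpo to Dcg/+ lay within 0.5 of that of the overlapping gene for 84 of the 112 members, and for Dcg > Hpo-RNAi to Dcg/+ this held for 95. Across these 112 pairs, which share libraries and may share reads, Spearman's rho was 0.83 and Pearson's r 0.70 in the first comparison, and 0.81 and 0.76 in the second. CR45604 (chrX:11089231-11095143), which shares exon bases with 3 genes on the other strand, had 8984, 11742 and 10981 counts in Dcg > Hpo, Dcg > Hpo-RNAi and Dcg/+. CG2061, the gene with the longest exon overlap (2339 bases), had 8, 39 and 13, CG2076 (1491 bases) had 1016, 1240 and 849, and Vago, a secreted antiviral factor (796 bases), had 7907, 10364 and 10038. CR31084 (chr3R:26425354-26428408) had 15074, 8481 and 11105 beside 25947, 15651 and 18541 for CG34291. CR31084 and CG34291 had the same order of libraries, as had CR45604 and Vago, whereas CG2076 was lowest in Dcg/+.

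**Figure D2:**
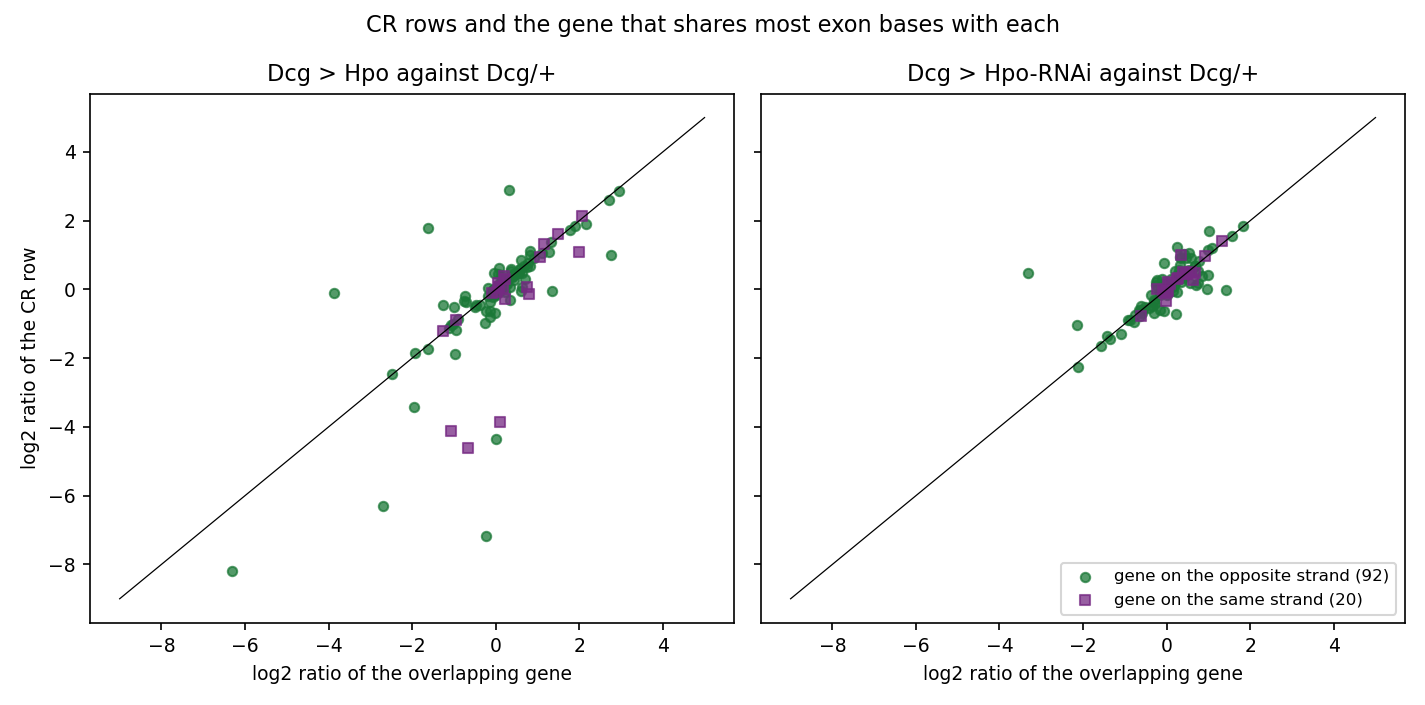
Log2 ratio of each of 112 members (vertical axis) against that of the gene sharing most exon bases with it (horizontal axis), for Dcg > Hpo against Dcg/+ on the left and Dcg > Hpo-RNAi against Dcg/+ on the right, on counts scaled to equal totals plus 1. Circles are genes on the opposite strand (92), squares genes on the same strand (20), and the line marks equal ratios. Most points lie near the line, and a group of members on the left panel lies far below it.

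Of the 158 members, 25 had a higher call in Dcg > Hpo than in Dcg/+ (15.8%) and 30 a lower one (19.0%). Of the 6582 rows of the whole table with as many summed counts, 11.6% were called higher and 12.6% lower. The median log2 ratio was 0.08 over the members and 0.13 over all of these rows, and with TMM factors, which shift every log2 ratio by -0.18, it was -0.093 over the members and -0.042 over all rows. With TMM factors the calls were 18 higher and 35 lower, and with median-of-ratios size factors 18 and 33. Among the 36 members that share no exon bases, 6 were called higher and 13 lower. Shares of all rows called under these factors or this overlap rule are not given. The 11.6% and 12.6% hold for library totals only and are no background for these counts.

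The Dcg > Hpo library held 7 members at 5 or more times their Dcg/+ level. The share of all rows at such a ratio is not given, so the number describes the members alone. Together the 7 held 5151 counts in Dcg > Hpo, 398 in Dcg > Hpo-RNAi and 251 in Dcg/+. Each reached 300 summed counts only through Dcg > Hpo, the library in which it is high. Their high level there is thus partly built into the choice of members. CR43283 (chr3R:11247631-11256123, minus strand) is cherub, a long noncoding RNA known from neural stem cells of the larval brain, and had 2605 counts in Dcg > Hpo, 59 in Dcg > Hpo-RNAi and 26 in Dcg/+. Its ratio to Dcg/+ was 94.5 (64.4 to 145) for Dcg > Hpo and 2.11 (1.31 to 3.49) for Dcg > Hpo-RNAi, or 1.99 and not called there with TMM factors. The nearest gene, CG5214, had 1322, 806 and 871 counts. Of 7 neuron markers, 6 had a higher call in the same library, and among them elav, a neuronal RNA-binding protein gene, had 1540, 177 and 129 counts, while the synaptic vesicle gene Syt1 had 2553, 4143 and 4454. The part of that tissue in the level of cherub was not tested. CR44948 (chr3R:25496078-25496478, minus strand) had 532 counts in Dcg > Hpo against 2 in Dcg > Hpo-RNAi and 1 in Dcg/+, a ratio to Dcg/+ of 502 with a counting interval from 89.7 to 19865. Its neighbour CG33494 had 6982, 4169 and 4110 counts. Neither member overlaps another gene, and both were far higher in Dcg > Hpo than in the other libraries.

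Of the others, CR43432 (chr3L:14976626-14977631), now named marge, had 548 counts in Dcg > Hpo, 158 in Dcg > Hpo-RNAi and 40 in Dcg/+, with ratios to Dcg/+ of 12.9 (9.37 to 18.3) and 3.68 (2.59 to 5.35). It was thus called higher in both transgenic libraries. Its neighbour Ocho, of the Bearded family of Notch pathway inhibitors, had 208, 0 and 0 counts. CR31451 (chr3R:23983503-23985065), now named mimi, had 337, 32 and 34 counts in Dcg > Hpo, Dcg > Hpo-RNAi and Dcg/+, 9.35 times Dcg/+ in Dcg > Hpo (6.56 to 13.7), and its neighbour CG13603 had 102, 61 and 158. The antisense RNA CR44850 (chr2L:14349070-14349799) had 474, 69 and 61 counts, at a ratio of 7.33 (5.61 to 9.74) for Dcg > Hpo, beside 939, 132 and 113 for l(2)34Fc on the other strand. CR43730 had 256, 37 and 39 counts beside 316, 49 and 45 for JhI-26, a juvenile hormone-inducible gene. These 2 antisense RNAs followed the gene they overlap.

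CR44067 (chr2R:24775711-24779987), the last of the 7, did not follow the gene with which it shares most exon bases. It had 399 counts in Dcg > Hpo, 41 in Dcg > Hpo-RNAi and 50 in Dcg/+, a ratio of 7.53 (5.60 to 10.3) for Dcg > Hpo, while egg, a histone methyltransferase gene that shares 629 of its exon bases, had 144, 94 and 109. The cuticle protein gene Lcp9 on the other strand, which shares 9 bases with CR44067, had 1006, 51 and 94. Its ratio was 10.1 for Dcg > Hpo, the same direction as CR44067, and a 3′ end of Lcp9 lies in an exon of CR44067. Further members called higher in Dcg > Hpo overlapped dm and Imp on the same strand. CR44999 shares 1859 exon bases with dm, the fly Myc gene, on the same strand, and had 2190, 728 and 474 counts in Dcg > Hpo, Dcg > Hpo-RNAi and Dcg/+ beside 2615, 836 and 591 for dm. CR45204, wholly within exon bases of the RNA-binding protein gene Imp, had 579, 228 and 219 counts beside 5464, 2511 and 2300. Their ratios to Dcg/+ in Dcg > Hpo were 4.36 and 2.49, and neither was called in Dcg > Hpo-RNAi. These members were singled out after their values were seen.

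**Figure D3:**
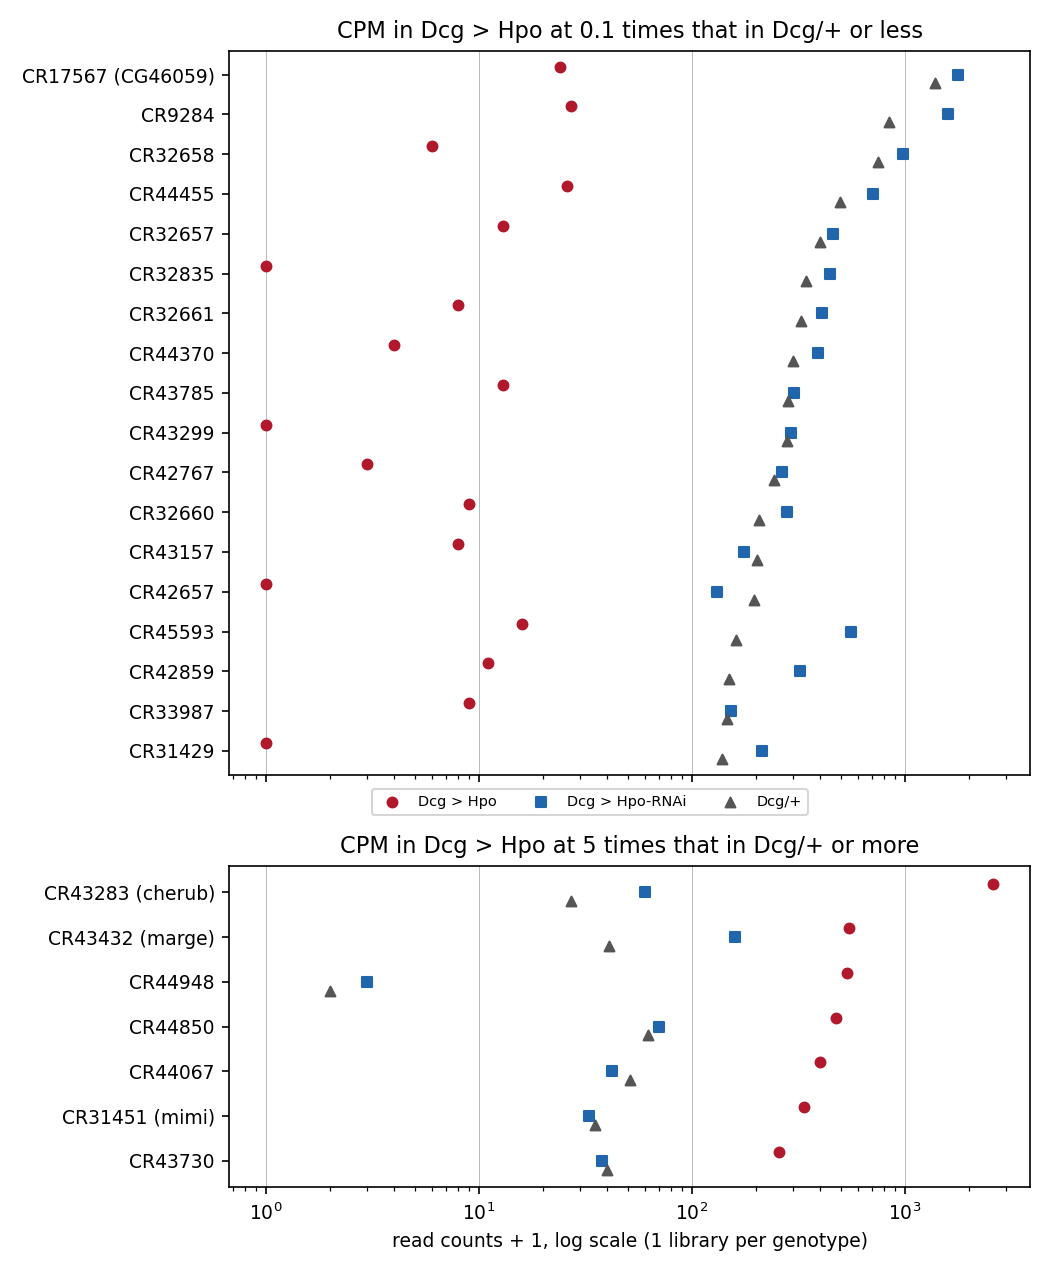
Read counts plus 1 on a log axis of the 18 members at 0.1 times the Dcg/+ level or less in Dcg > Hpo (upper panel) and the 7 members at 5 times or more (lower panel), with 1 symbol per library. In the upper panel Dcg > Hpo lies at 26 counts or fewer in every row while Dcg > Hpo-RNAi and Dcg/+ both lie above 100, and in the lower panel only Dcg > Hpo lies at or above 256.

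At the other end, 18 members were at 0.1 times their Dcg/+ level or less in Dcg > Hpo. Here too the share of all rows at such a ratio is not given, so the number is not read as a trait of CR rows. The 18 members held from 0 to 26 counts in Dcg > Hpo, from 131 to 1770 in Dcg > Hpo-RNAi and from 138 to 1382 in Dcg/+, and summed to 7.02, 402 and 312 CPM. Their ratios of Dcg > Hpo-RNAi to Dcg/+ ran from 0.626 to 3.25 with a median of 1.20, with 2 higher calls (CR45593 and CR42859, the second lost with TMM factors at 1.89 and with median-of-ratios size factors at 1.91) and 0 lower calls. Of the 18, 14 are long noncoding RNAs, 3 are antisense RNAs and 1 is now a coding gene. A total of 10 share no exon bases with another gene, so that no annotated partner shares their exonic reads. Testis and sperm genes were low in the same library, with 19 of 20 called lower there, and the part of that tissue in the levels of these members was not tested.

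CR32835 (chr2R:22951148-22953800, minus strand), which overlaps no gene, had 0 counts in Dcg > Hpo, 445 in Dcg > Hpo-RNAi and 343 in Dcg/+. Set against a floor of 3 counts per library, it was at least 121-fold lower in Dcg > Hpo than in Dcg/+. CR43299 (chrX:15662289-15665707) had 0, 290 and 278 counts in the same order, at least 98.2-fold lower, and CG8119 on the other strand had 0, 89 and 75. CR42657 (chrX:9688189-9689295) had 0, 131 and 195 counts, at least 68.9-fold lower, while its neighbour nej, a histone acetyltransferase gene, had 1686, 1526 and 1345. CR31429 (chr3R:9022057-9024018), antisense to neur, a ubiquitin ligase gene of Notch signalling, had 0, 213 and 138 counts, at least 48.7-fold lower, while neur had 69, 110 and 76. These 4 were the members without a single count in Dcg > Hpo.

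CR17567 (chr2L:19183093-19183787), since renamed CG46059 and annotated as coding, had 23 counts in Dcg > Hpo, 1770 in Dcg > Hpo-RNAi and 1382 in Dcg/+, a ratio to Dcg/+ of 0.0157 (0.00992 to 0.0237) for Dcg > Hpo. Its neighbour gammaTub37C had 8, 6 and 0 counts. CR9284 had 26, 1602 and 846 counts in the same order. CR45593, which shares 102 bases with Ama on the other strand, had 15, 558 and 160, and Ama had 2428, 19087 and 8834. The direction was the same for the pair in both comparisons, but the ratio of CR45593 in Dcg > Hpo was 0.0885 (0.0484 to 0.15).

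The X chromosome carried 8 of the 18, and 5 of these lay in 2 runs. CR32661, CR43157 and CR32660 follow each other within chrX:11917806-11920574, all on the minus strand. CR32661 had 7 counts in Dcg > Hpo, 408 in Dcg > Hpo-RNAi and 323 in Dcg/+, CR43157 had 7, 174 and 201, and CR32660 had 8, 278 and 206. CR32660 lies wholly in exons of the same-strand gene Sclp, which had 166, 325 and 249 counts. The second run, on the plus strand, holds CR32657 (chrX:12087211-12087695) with 12, 461 and 397 counts and CR32658 (chrX:12091264-12092272) with 5, 982 and 750. Both lie in the body of the teneurin gene Ten-a without sharing its exons, and Ten-a went the other way, with 733, 285 and 130 counts. Coding genes within the span of Ten-a went both ways. CG15734 with 30, 175 and 279 counts and CG2750 with 4, 48 and 38 were also low in Dcg > Hpo, whereas Muc11A had 4850, 647 and 778. The ratio of CR32658 to Dcg/+ was 0.00629 (0.00204 to 0.0147) for Dcg > Hpo and 1.22 (1.11 to 1.34) for Dcg > Hpo-RNAi. In both runs the Dcg > Hpo library was far below the other 2, which lay close to each other.

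**Figure D4:**
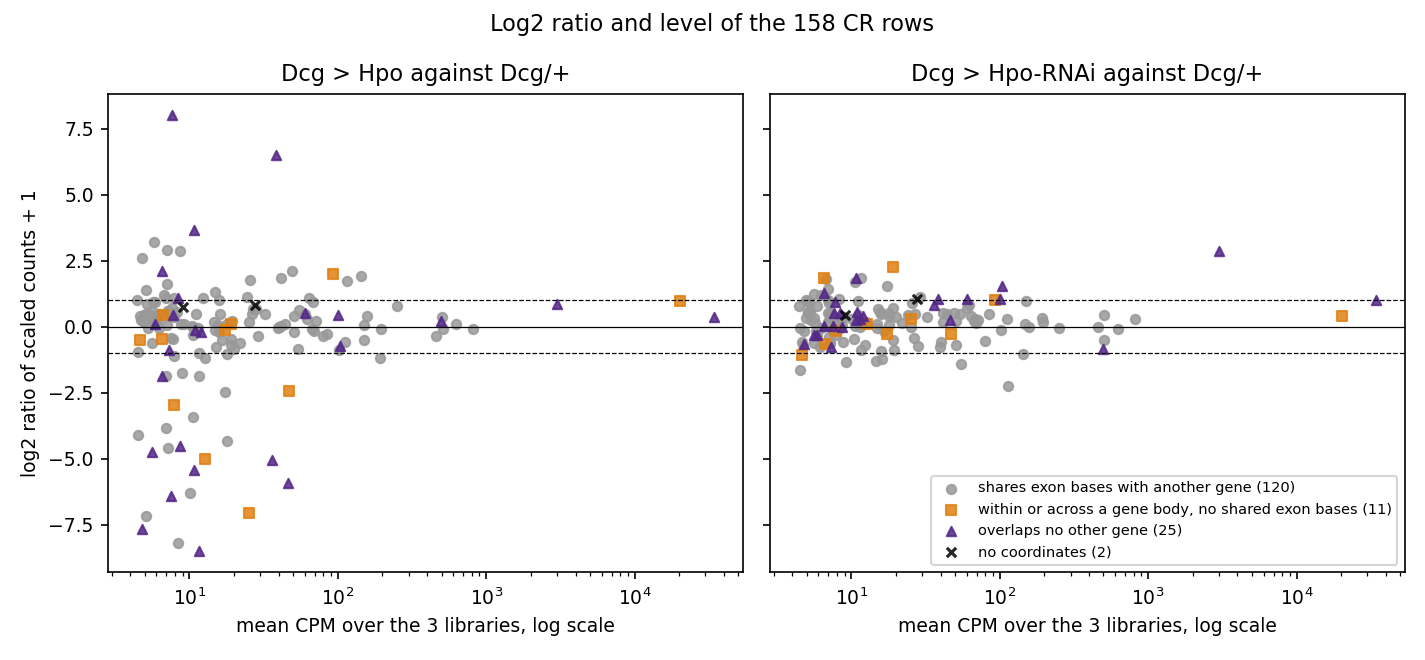
Log2 ratio of counts scaled to equal totals plus 1 (vertical axis) against the mean CPM over the 3 libraries on a log axis, for the 158 members, with Dcg > Hpo against Dcg/+ on the left and Dcg > Hpo-RNAi against Dcg/+ on the right. Symbols give the overlap with other genes, and dashed lines mark ratios of 2 and 0.5. The low ratios of the left panel, with 18 members at 0.1 or less, have no counterpart on the right, where CR40469 has the highest ratio.

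In Dcg > Hpo-RNAi against Dcg/+, 22 members had a higher call (13.9%) and 8 a lower one (5.06%), where 3.86% of the 6582 rows were called higher and 4.86% lower. The median log2 ratio was 0.24 over the members and 0.11 over all of these rows. With TMM factors the calls were 14 higher and 9 lower, and with median-of-ratios size factors 15 and 9. Among the 36 members that share no exon bases, 10 were called higher and 1 lower. Here too the shares of all rows, 3.86% and 4.86%, hold for library totals only. No share under the other factors or the overlap rule is given.

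Beside CR40469 and the rRNA pseudogenes, 2 of the members called higher in Dcg > Hpo-RNAi are now annotated as coding. CR44404 (chr2R:17671068-17671295) is IBIN, first described as a noncoding RNA induced by infection, and had 954 counts in Dcg > Hpo, 4702 in Dcg > Hpo-RNAi and 1495 in Dcg/+. The ratio to Dcg/+ was 2.93 (2.76 to 3.11) for Dcg > Hpo-RNAi and 0.602 (0.555 to 0.654) for Dcg > Hpo. P32, its neighbour, had 201, 78 and 189 counts. CR45045 (chr3R:17667572-17667825), now CG45045, had 206, 948 and 182 counts in the same order, 4.85 times Dcg/+ in Dcg > Hpo-RNAi (4.14 to 5.72), inside the body of CG14322 with 239, 248 and 172. Both were highest in the knockdown library and not called in Dcg > Hpo.

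CR44185 (chr2L:135402-136128), in the body of CG11455, had 61 counts in Dcg > Hpo, 311 in Dcg > Hpo-RNAi and 80 in Dcg/+, 3.62 times Dcg/+ in Dcg > Hpo-RNAi (2.82 to 4.69), while CG11455 had 3694, 2372 and 2772. CR44372 (chr2R:15691054-15693887) had 45, 611 and 157 counts, 3.63 times Dcg/+ in Dcg > Hpo-RNAi (3.04 to 4.35) and 0.27 times in Dcg > Hpo (0.19 to 0.379). The gene on its other strand, CG30088, had 41, 579 and 151, close to the counts of the antisense RNA but not within 2% of them. CR32207, a hairpin RNA of the kind that gives rise to endogenous siRNAs, had 160, 246 and 65 counts and was above the call against Dcg/+ in both cases, at 2.32 (1.73 to 3.15) for Dcg > Hpo and 3.53 (2.67 to 4.71) for Dcg > Hpo-RNAi.

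Lowest in the knockdown was CR45629 (chrX:10217627-10219303), with 5840 counts in Dcg > Hpo, 377 in Dcg > Hpo-RNAi and 1670 in Dcg/+. Its ratio to Dcg/+ was 0.21 (0.188 to 0.235) for Dcg > Hpo-RNAi and 3.30 (3.12 to 3.49) for Dcg > Hpo, so that the calls had opposite signs. CG15308, the gene on the other strand, had 8158, 552 and 2253 counts in the same order. CR44054 had this pattern too, with 7146, 953 and 1803 counts, beside 486, 24 and 102 for CG15199 and 7016, 919 and 1837 for ssp7, both on the other strand. CR42868 (chr2R:22666359-22666764) had 2023, 487 and 1229 counts and CR45269, which overlaps it on the other strand, had 277, 103 and 247, with ratios of 0.369 (0.332 to 0.41) and 0.389 (0.306 to 0.491) for Dcg > Hpo-RNAi. CR45053 (chr3R:9632035-9633076) had 455, 168 and 384 counts beside 1573, 637 and 1259 for SpdS. CR43933 (chr3L:21496393-21498830) had 87, 55 and 163 counts beside 251, 102 and 282 for the nuclear receptor gene Hr78. Each of these members shares exon bases with another gene, as do 120 of all 158.

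Between the transgenic libraries, 27 members were called higher in Dcg > Hpo than in Dcg > Hpo-RNAi (17.1%) and 39 lower (24.7%), where 12.9% of the 6582 rows were called higher and 14.9% lower. The median log2 ratio was -0.14 over the members and 0.03 over all of these rows. CR45629 stood at 15.7 times (14.1 to 17.5) its knockdown level in Dcg > Hpo, mimi at 10.7 times (7.41 to 15.8) and CR44067 at 9.86 times (7.14 to 13.9). CR40469 was at 0.25 times (0.247 to 0.253), IBIN at 0.205 times (0.191 to 0.22) and CR32658 at 0.00516 times (0.00167 to 0.0121). The comparisons with Dcg/+ both rest on the same control library, and this last one does not use it. By the highest CPM, 63 members peaked in Dcg > Hpo, 74 in Dcg > Hpo-RNAi and 21 in Dcg/+. The same split over all rows is not given, so these numbers are not read as a trait of CR rows. Under this scaling the median log2 ratio to Dcg/+ over the 6582 rows was above 0 as well, at 0.13 for Dcg > Hpo and 0.11 for Dcg > Hpo-RNAi.

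Hairpins of microRNAs lie inside 7 members on the same strand, and these were taken for that feature and not for their values. CR43334 (chr3L:628435-643900), the gene around bantam, had 971 counts in Dcg > Hpo, 537 in Dcg > Hpo-RNAi and 267 in Dcg/+. Its level was 41.8 CPM (39.2 to 44.5, exact Poisson interval) in Dcg > Hpo, 22.8 CPM (20.9 to 24.8) in Dcg > Hpo-RNAi and 12.2 CPM (10.8 to 13.7) in Dcg/+. The ratio to Dcg/+ was 3.43 (2.99 to 3.94) for Dcg > Hpo, which was called, and 1.87 (1.62 to 2.18) for Dcg > Hpo-RNAi, which was not. The host gene was thus lowest in Dcg/+ and above it in both transgenic libraries. CR43650 (chr2R:16829095-16839494), the gene around mir-8, a microRNA that promotes growth through the larval fat body, had 2136, 1348 and 944 counts, with ratios to Dcg/+ of 2.14 (1.98 to 2.31) for Dcg > Hpo and 1.33 (1.22 to 1.45) for Dcg > Hpo-RNAi. The call in Dcg > Hpo was lost with TMM factors (1.89) and with median-of-ratios size factors (1.95).

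Host genes of mir-282 and mir-276a had the opposite order in Dcg > Hpo. CR43626, around mir-282, had 1801 counts in Dcg > Hpo, 3339 in Dcg > Hpo-RNAi and 2536 in Dcg/+, and CR44327, around mir-276a and now named CR46006, had 707, 1803 and 1199. Their ratios to Dcg/+ were 0.67 (0.631 to 0.712) and 0.556 (0.506 to 0.611) for Dcg > Hpo, and 1.23 (1.16 to 1.29) and 1.40 (1.30 to 1.51) for Dcg > Hpo-RNAi. CR44206, around mir-184, had 248, 356 and 168 counts and CR43857, around mir-275, had 168, 155 and 83, with ratios from 1.39 to 1.97 in both libraries. None of these 4 was called against Dcg/+, although CR44327 was called lower in Dcg > Hpo with TMM factors (0.492). CR43836 (chrX:8972908-9048991), which spans mir-31b, had 10030, 14839 and 10100 counts, but the same-strand gene CG10962 shares 473 of its exon bases and had 10059, 14893 and 10108. The kit reads polyadenylated ends, so that these values describe the host transcripts and not the mature microRNAs.

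**Figure D5:**
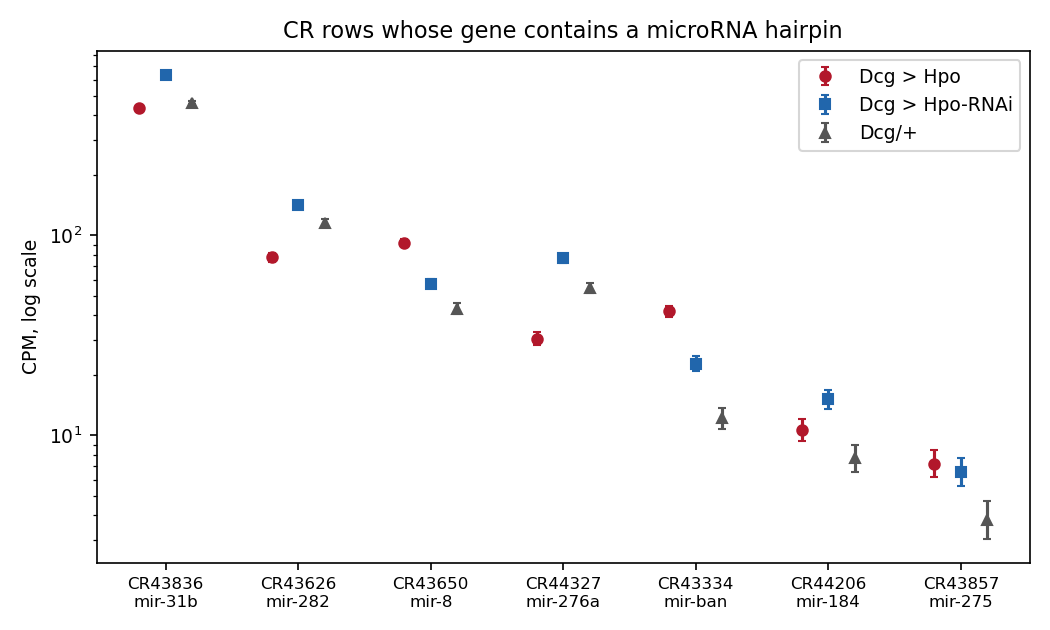
Levels in CPM on a log axis of the 7 members with a microRNA hairpin inside, with exact 95% Poisson intervals that cover counting error only, for Dcg > Hpo, Dcg > Hpo-RNAi and Dcg/+ from left to right within each gene. The hosts of mir-ban, mir-8 and mir-275 are highest in Dcg > Hpo, for mir-275 with an interval that overlaps that of Dcg > Hpo-RNAi. Those of mir-282, mir-276a and mir-31b are lowest in Dcg > Hpo, and that of mir-184 is highest in Dcg > Hpo-RNAi.

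The 93-base small RNA CR43701, beside snoRNA:Psi28S-2622 in the body of stet, had 3651 counts in Dcg > Hpo, 1875 in Dcg > Hpo-RNAi and 876 in Dcg/+, with ratios to Dcg/+ of 3.93 (3.65 to 4.24) and 1.99 (1.84 to 2.16). CR43264, in the body of CG15765, had 295, 1367 and 1534 counts, 0.181 times Dcg/+ in Dcg > Hpo (0.16 to 0.206). Of 23 further noncoding genes listed by name, 19 had a row, of which 17 held at least 10 counts in 1 of the libraries compared. Against Dcg/+, 4 of the 17 had a higher call and 3 a lower one in Dcg > Hpo, and 0 and 5 in Dcg > Hpo-RNAi. Among all rows that meet this 10-count rule, higher calls made up 18.2% and lower calls 22.8% for Dcg > Hpo. The matching shares for Dcg > Hpo-RNAi were 7.81% and 9.09%. Whether the 17 genes differ from these shares was not tested. The nervous system RNA noe had 7635, 354 and 301 counts, 23.9 times Dcg/+ in Dcg > Hpo (21.3 to 26.9), the same direction as cherub. The snoRNA host Uhg7 had 48420, 58088 and 41478 counts and the stress-induced Hsromega had 2001, 1625 and 1453, and neither was called. The dosage compensation RNA roX1 had 2514 counts in Dcg > Hpo, 3266 in Dcg > Hpo-RNAi and 7467 in Dcg/+, or 0.318 times Dcg/+ (0.304 to 0.332) for Dcg > Hpo and 0.408 times (0.391 to 0.425) for Dcg > Hpo-RNAi, both called lower.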

How the data were processed

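RNA of 3 samples, 1 per genotype, was measured with the QuantSeq 3′ mRNA kit. The authors deposited counts of reads for each gene, made by the company ebiogen on build dm6, and no scaling had been applied. The sources used here do not give the aligner, the counter or its strand setting. Rows were matched by symbol, locus tag or synonym to the Ensembl release 115 and RefSeq annotations of that genome release, which placed 16280 of 16509 rows and 156 of 158 members, and the gene models behind the counts may differ from these. CR40741 and CR41609 each have a second row at 0 counts, left out.

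Counts were divided by library totals. Ratios carry exact Clopper-Pearson intervals and levels of microRNA hosts exact Poisson intervals (Python 3.11.15, scipy 1.17.1). Reads are not independent molecules, so both cover counting error only. Median log2 ratios add a pseudocount of 1, and bounds against 0 use a floor of 3 counts per library. Alternatives were median-of-ratios size factors from DESeq2 1.42.0, TMM factors from edgeR 4.0.16, quantile normalization from limma 3.58.1, other folds, pseudocounts and membership thresholds.

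Members were named by rule: the 12 with most counts, the 5 called per direction and comparison whose interval bound lay farthest from 1, and the gene that overlaps or neighbours each. Others were named after their values were seen. The members and lists were chosen with earlier results of these data known.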

Additional observations from a re-analysis of the deposited data

How the results depend on the processing

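No paired analysis was possible because each genotype has 1 library, and for the same reason no library could be left out. Of 72 alternative counts of calls, 35 lay within 1.5 times the count reported. Of the 132 alternative ratios of members named by rule, 8, of 5 members, moved to the other side of 1, none of them called (from 0.936 to 0.99, against 1.05 to 1.12 as reported), and 5 crossed the call: CR41602 in Dcg > Hpo-RNAi with TMM (1.89) and median-of-ratios factors (1.92) and cherub there with TMM (1.99) lost it, and CR43933 in Dcg > Hpo gained it under both scalings (0.446 and 0.46). In the following, calls are given as higher and lower members for Dcg > Hpo against Dcg/+, Dcg > Hpo-RNAi against Dcg/+ and Dcg > Hpo against Dcg > Hpo-RNAi, where they moved by over 1.5 times. A fold of 1.5 gave 42 higher members in the first comparison, 37 higher and 27 lower in the second and 44 higher in the last. A fold of 3 gave 15 higher, then 7 higher and 2 lower, then 14 higher. TMM factors gave 14 higher members in the second comparison and a median log2 ratio of -0.093 in the first. A threshold of 100 summed counts (260 members) gave 70 lower in the first, 22 lower in the second, and 45 higher and 83 lower in the last, with a median of -0.12 in the first. A threshold of 1000 (76 members) gave 10 and 8, 10 and 5, and 13 and 16. With no threshold other than 10 counts in 1 of the libraries compared, the calls were 80 and 234 of 548 CR rows, 121 and 75 of 605, and 90 and 273 of 582, where 18.2% and 22.8%, 7.81% and 9.09%, and 19.4% and 24.3% of all rows under the same rule were called, with medians of -0.53 in the first comparison and -0.78 in the last. The 25 members that overlap no other gene gave 5 and 9, 8 and 0, and 4 and 11, with medians of -0.15, 0.51 and -0.65. The 36 members that share no exon bases, an alternative chosen after seeing the data, gave 6 and 13, 10 and 1, and 5 and 17, with medians of -0.18 in the first comparison and -0.67 in the last. Other thresholds and overlap groups change the number of members counted. Among these alternatives a share of all rows is given only for the 10-count rule. The counts under the other folds, scalings, thresholds and overlap groups have no such background and are not read as a trait of CR rows. With 1 library per genotype, differences between genotypes cannot be told apart from differences between libraries, and members with few counts have wide intervals.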
